A study of Rattus norvegicus with 6 samples.

Results

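The genes described here are 7 aquaporins, Aqp1, Aqp3, Aqp4, Aqp5, Aqp7, Aqp9 and Aqp11, chosen by symbol as those known from skin, fat, muscle, secretory gland, leukocytes and vessels. They are 7 of the 18825 genes in a table of messenger RNA from dorsal skin wounds of male Sprague-Dawley rats. Both groups were made diabetic by feeding fat and sucrose in excess and then giving streptozotocin, a toxin of pancreatic beta cells, and each had a full-thickness wound. Untreated wounds (control, n = 3) were set against wounds treated with DST-MNs (n = 3), multifunctional microneedles loaded with spheroids of dental pulp stem cells under regulation by spermidine and TGF-β3. No group with microneedles alone is among the samples analysed here, so the needle, the cells and the agents cannot be told apart. The labels used here give neither the age of the rats nor the day of collection, and call the libraries of a group biological replicates.

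Aquaporins are membrane channels built as tetramers, in which each subunit carries its own pore. Classical members such as Aqp1, Aqp4 and Aqp5 pass water, while the aquaglyceroporins Aqp3, Aqp7 and Aqp9 also pass glycerol, and Aqp11 is an unorthodox member of intracellular membranes. In skin, Aqp3 lies in the basal layers of the epidermis and is known for its part in hydration and in keratinocyte migration. Aqp1 belongs to capillary endothelium and red blood cells, and Aqp7 releases glycerol from adipocytes.

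Library totals ran from 12545206 to 13818548 counts. Levels are given below in TPM, a unit scaled for gene length and library, and as counts, on which the tests were run. The dermal collagen Col1a1 stood at 6116 TPM or more in every library and the basal keratin Krt14 at 6.90 TPM or more. Treated libraries held more epidermal and sebaceous transcripts than controls. The summed level of 10 basal keratinocyte markers was 55.0 to 218 TPM in controls and 345 to 3915 TPM in treated libraries, and that of 8 sebocyte markers 20.4 to 37.2 and 445 to 473 TPM. Libraries also differed within groups. Fast skeletal muscle markers summed to 8585, 25.6 and 492 TPM in controls 1, 2 and 3 and to 7028 to 9192 TPM in the treated libraries, and 10 hair follicle markers reached 1119 TPM in DST-MNs 1 against 2.7 and 5.18 TPM in DST-MNs 2 and 3. In bulk tissue, fewer cells of a type and less RNA per cell cannot be told apart.

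Aqp1 was by far the most abundant of the 7 genes in every library, and the other members followed in an order that differed between the groups. In controls Aqp1 stood at 176 ± 24.7 TPM (SD, n = 3), then came Aqp7 at 2.50 ± 0.458, Aqp3 at 1.94 ± 1.02 and Aqp9 at 1.40 ± 0.50 TPM, neighbours whose ranges overlapped. Aqp11 followed at 0.357 ± 0.216 TPM, below every control value of Aqp9. Aqp5 and Aqp4 came last, at 0.04 and 0.033 TPM, with 1 and 3 counts in the control group. In treated wounds Aqp1 stood at 129 ± 24.3 TPM, Aqp3 at 25.8 ± 21.7 and Aqp7 at 7.81 ± 3.27 TPM, and the ranges of Aqp3 and Aqp7 overlapped. Treated levels of Aqp9 (1.42 ± 0.850 TPM), Aqp11 (0.707 ± 0.110), Aqp4 (0.680 ± 0.572) and Aqp5 (0.517 ± 0.448) overlapped one another.

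**Figure D1:**
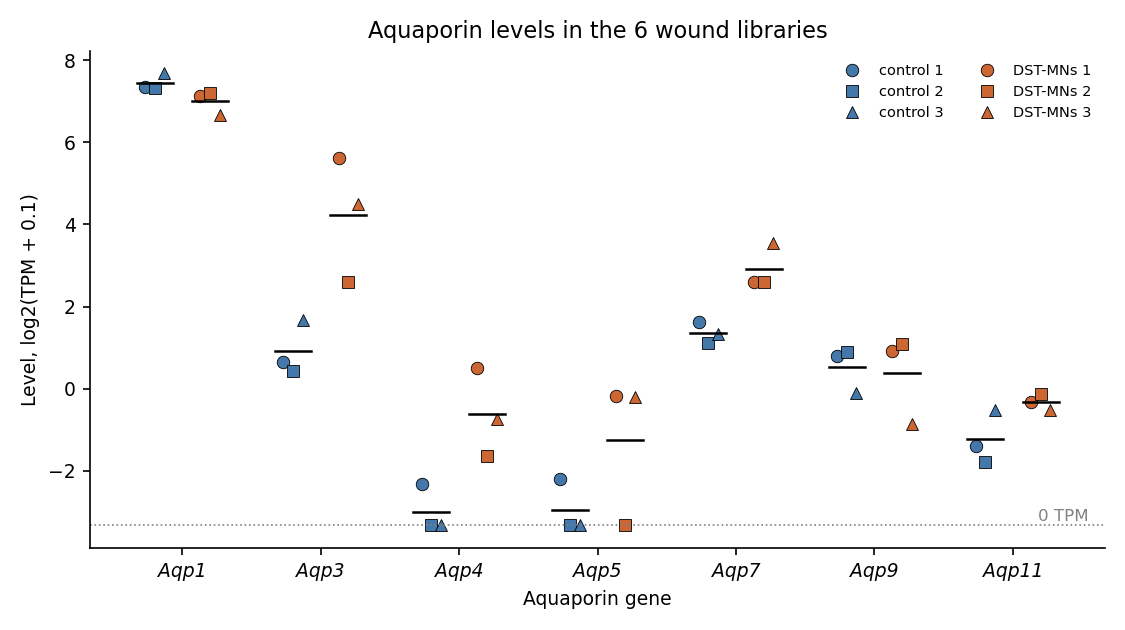
Level of each aquaporin gene, as log2(TPM + 0.1), in the 3 control (blue) and 3 DST-MNs (orange) libraries; marker shapes stand for replicate numbers, black bars are group means on this scale and the dotted line is 0 TPM. Control and treated points lie apart for Aqp1, which is lower after treatment, and for Aqp3, Aqp4 and Aqp7, which are higher, while those of Aqp5 and Aqp9 overlap and the Aqp11 points meet at 0.60 TPM.

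Of the 7 genes, 5 had enough counts to be tested, and none passed edgeR's quasi-likelihood test at a Benjamini-Hochberg adjusted p below 0.05, where 0.776% of the 14427 genes tested passed. Of the genes passing, 0.658% of those tested were higher and 0.118% lower. An unadjusted p below 0.05 was reached by 3 aquaporins with higher values, Aqp3, Aqp4 and Aqp7, against 9.8% of all genes tested, and by 1 with lower values, Aqp1, against 6.88% (16.7% in both directions). The Wald test of DESeq2 called the same 4 genes at an adjusted p below 0.05, where it called 4.36% of genes as higher and 2.73% as lower (7.1% in all). Limma-voom and the fit with the replicate number as a block called none of the 5, where they called 95 and 123 of the 14427 genes. The groups did not overlap in scaled counts for these 4, nor for 22.9% of all genes tested. Aqp4 was tested only because the treated libraries carried it over the count filter, so it had to differ and its place in these counts supports nothing.

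**Figure D2:**
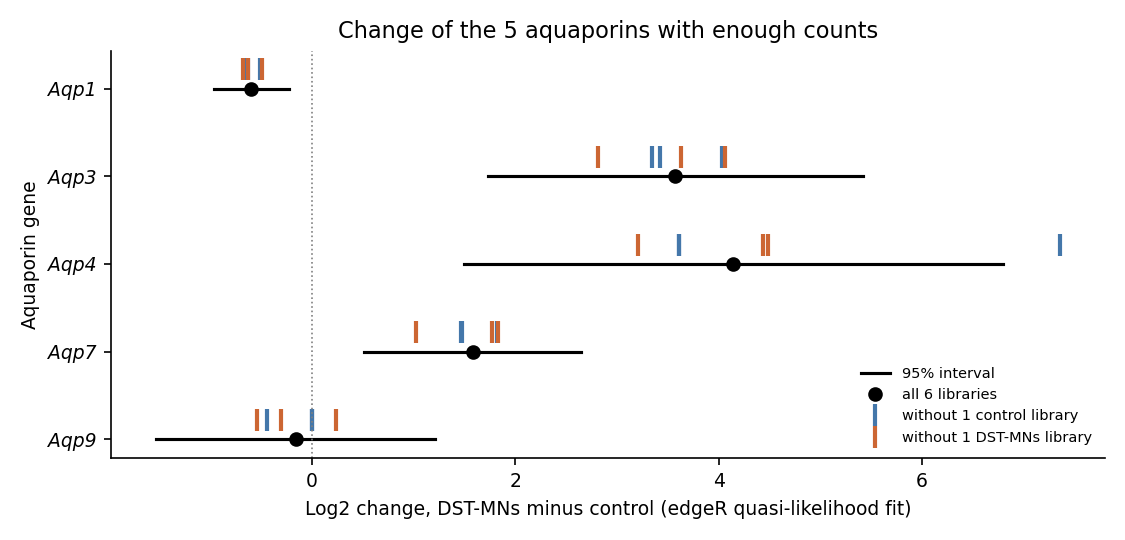
Log2 change (DST-MNs minus control) of the 5 tested aquaporins, with its 95% interval from the edgeR quasi-likelihood fit (black), and the change with each of the 6 libraries left out (coloured ticks). The intervals of Aqp1, Aqp3, Aqp4 and Aqp7 exclude 0, though none passed adjustment over all genes, and the Aqp4 tick at 7.35 is the fit without control 1, in which the controls hold 0 counts.

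Aqp3 (gene ID 65133), the water and glycerol channel of basal keratinocytes, showed higher values in all treated libraries. It had 24, 20 and 47 counts in controls 1, 2 and 3, or 1.46, 1.26 and 3.11 TPM. The DST-MNs libraries 1, 2 and 3 held 743, 89 and 339 counts, or 49.0, 6.01 and 22.3 TPM. The lowest treated value lay above the highest control value, and the treated libraries differed among themselves by more than the controls did. The log2 change was 3.57 (SE 0.77, 95% interval 1.73 to 5.42), a fitted fold of 11.9, at an adjusted p of 0.112 in edgeR. It ranked 210 from the top among the 14427 changes. The adjusted p was 8.14e-06 with DESeq2 and 0.0625 without DST-MNs 2, its lowest with 1 library left out, while without DST-MNs 1 the log2 change was 2.81.

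The treated libraries stood in the same order for Aqp3 and for the basal keratins. Krt14, a keratin of basal keratinocytes, had control levels of 100, 6.90 and 85.5 TPM in replicates 1, 2 and 3, and treated levels of 1913, 119 and 727 TPM. All 10 tested basal markers had positive changes, with a median of 2.66, against a median of 0.0044 over all genes tested. By edgeR's quasi-likelihood test 0 of the 10 passed, with 8 under 0.05 unadjusted, all higher, against 9.8% of all genes tested. DESeq2 called 3, the replicate block 4 and voom 0, against 1018, 123 and 95 over all genes tested. The mean log2 ratio of Aqp3 to these 10 markers was -1.47 ± 0.948 in controls and -0.80 ± 0.335 in treated wounds (SD, n = 3). The difference of 0.66 was within the spread of the controls, which ran from -2.39 to -0.50 (exact permutation test, two-sided, p = 0.3, and 0.48 adjusted over 6 such ratios, where 0.1 is the smallest p that 3 against 3 allows). The part of epidermal content in the Aqp3 level was not tested beyond this ratio. The sebocyte markers, at 20.4 to 37.2 TPM in controls, also lay higher in all treated libraries. They ran almost level there, at 473, 445 and 473 TPM, where Aqp3 ran from 6.01 to 49.0 TPM. The part of sebaceous content in the Aqp3 level was not tested.

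The stretch of 250 bases before the annotated start is shown for Aqp3 and Aqp1, the members with the most counts among those that stood higher and lower after treatment. Sequences are from RefSeq on build GRCr8, while the counts rest on mRatBN7.2. Aqp3 is on the minus strand at chr5:61040684-61040933 and Aqp1 on the plus strand at chr4:85812534-85812783, both read 5′ to 3′ in the direction of the gene. Capitals mark matches to a TATA box (TATAAA) or a GC box (GGGCGG, or CCGCCC on the opposite strand).
Aqp3: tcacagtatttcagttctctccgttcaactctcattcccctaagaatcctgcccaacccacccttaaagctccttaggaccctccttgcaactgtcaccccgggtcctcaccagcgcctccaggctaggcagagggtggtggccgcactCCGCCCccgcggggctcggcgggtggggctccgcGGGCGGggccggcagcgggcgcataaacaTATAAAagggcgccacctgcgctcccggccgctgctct
Aqp1: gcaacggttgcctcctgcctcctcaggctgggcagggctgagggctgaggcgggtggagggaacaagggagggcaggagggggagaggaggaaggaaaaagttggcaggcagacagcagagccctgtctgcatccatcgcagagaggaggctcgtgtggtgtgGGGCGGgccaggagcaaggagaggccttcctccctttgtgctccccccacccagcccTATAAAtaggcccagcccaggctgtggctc
Both stretches hold 1 TATA box on the gene's strand, beginning 38 bases before the start of Aqp3 and 30 bases before that of Aqp1, and 12.9% of 33469 such stretches hold one on either strand. None of the stretches found for Aqp4, Aqp5, Aqp9 and Aqp11 had these letters. Aqp3 has 2 GC boxes, at 101 and 67 bases before the start, and Aqp1 has 1, at 87, where 30.5% of stretches hold one. The G+C share was 65.2% in both, against a median of 51.2%, but Aqp3 holds 19 CpG pairs and Aqp1 holds 5. On either strand, neither stretch held CCAAT (the CCAAT box), which is in 34.0% of stretches, or TGANTCA (the AP-1 site), which is in 6.34%. Nor did they hold AGGTCA (a nuclear receptor half-site), which is in 14.1%, or TGGAAA (the core of NFAT-type sites), which is in 19.7%. The matches shown do not overlap one another. A match is a string of letters, not a measured site.

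Aqp1 (gene ID 25240), the water channel of capillary endothelium and red blood cells, was lower in all treated libraries. Control replicates 1, 2 and 3 held 4161, 3936 and 4781 counts, and the treated replicates 3286, 3362 and 2377. In TPM these were 164, 160 and 205 against 140, 147 and 102. The groups did not overlap, though the gap between them was smaller than the spread within each. The log2 change was -0.60 (SE 0.15, 95% interval -0.97 to -0.23), so controls were 1.52-fold higher, and the adjusted p was 0.155 with edgeR and 0.00433 with DESeq2. It was -0.48 with total counts in place of TMM factors, which moved the median of all genes to 0.12.

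Markers of blood endothelium had mostly lower values too. Of 10 tested, 9 had negative changes, and the median was -0.30. The exception was Cldn5, with a log2 change of 0.89 (SE 0.38). By edgeR 0 passed, with 2 under 0.05 unadjusted, both lower, against 6.88% of all genes tested. DESeq2 called 1 lower, against 2.73% of all genes, and voom and the block 0. The summed levels overlapped, at 719.6 to 858.1 TPM in controls and 594.1 to 857.6 TPM after treatment. Fibroblast markers were also mostly lower, with 6 of 8 tested negative and a median of -0.21. Pecam1, an adhesion molecule between endothelial cells, had a log2 change of -0.49 (SE 0.17) and Cdh5, the endothelial cadherin, one of -0.41 (SE 0.18). The mean log2 ratio of Aqp1 to the 10 markers was 1.48 ± 0.233 in controls and 1.15 ± 0.314 in treated wounds, and the groups overlapped (difference -0.33, exact permutation test, two-sided, p = 0.2). Red blood cell markers did not follow Aqp1. They summed to 1355 TPM in control 1 and to 8944 and 9297 TPM in controls 2 and 3, while Aqp1 stood at 164, 160 and 205 TPM there, and their median log2 change was 0.0068 over 7 tested.

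Aqp7 (gene ID 29171), the glycerol channel of adipocytes, was higher in all treated libraries. Controls 1, 2 and 3 held 47, 30 and 30 counts, or 2.99, 2.08 and 2.44 TPM. DST-MNs 1, 2 and 3 held 75, 83 and 174 counts, or 5.93, 5.91 and 11.6 TPM. The groups lay apart, with DST-MNs 3 standing highest. The log2 change was 1.58 (SE 0.45, 95% interval 0.51 to 2.65), a fitted fold of 2.99, and it was 1.02 without DST-MNs 3. The adjusted p was 0.168 with edgeR and 0.0284 with DESeq2. In RefSeq, Aqp7 and Aqp3 are neighbouring protein-coding genes on chromosome 5, and both were higher in all treated libraries. The treated library with the most Aqp3 was DST-MNs 1 and that with the most Aqp7 was DST-MNs 3. Whether their position bears on their levels was not tested.

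Adipocyte markers differed among themselves in how they ran over the libraries. Their summed level was 2636, 2767 and 2228 TPM in controls, against 3013, 2850 and 3137 TPM in the treated libraries, so the groups lay apart and DST-MNs 3 was highest, as for Aqp7. Most of that sum was Fabp4, a fatty acid carrier, so its order over the libraries leans on this gene. Fabp4 stood at 2032, 2449 and 1878 TPM in controls and 2053, 2493 and 2674 TPM in treated libraries, which overlapped. All 9 tested had positive changes with a median of 0.28, and by edgeR 0 passed, with 0 at an unadjusted p below 0.05 and 0 by DESeq2, voom or the block. Adipoq, the adipocyte hormone adiponectin, had control levels of 35.9, 8.55 and 20.7 TPM and treated levels of 131, 7.41 and 18.0 TPM in replicates 1, 2 and 3. Unlike Fabp4, Adipoq was highest in DST-MNs 1, and so was the lipid droplet coat gene Plin1, at 22.4 TPM, against 1.94 and 5.74 TPM in DST-MNs 2 and 3. The mean log2 ratio of Aqp7 to the 10 adipocyte markers was -2.47 ± 0.334 in controls and -1.60 ± 1.28 in treated wounds (difference 0.86, exact permutation test, two-sided, p = 0.4). Set against these markers, DST-MNs 1 had the lowest Aqp7 of all 6 libraries, at -3.07, and DST-MNs 3 the highest, at -0.73. Schwann cell markers, which share the high value of DST-MNs 3, summed to 78.7, 35.6 and 35.4 TPM in controls and 49.7, 94.7 and 162 TPM in treated libraries, and their part in the Aqp7 level was not tested.

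Other genes of glycerol and triglyceride handling, the pathway in which Aqp7 exports its glycerol, differed in direction from one another. Their summed level was 409 to 427 TPM in controls and 450 to 687 TPM after treatment, ranges that did not overlap. The most abundant of them, Lpl, weighs most in this sum. It stood at 105, 71.7 and 80.6 TPM in controls and 287, 143 and 125 TPM in treated libraries. Of 14 listed and tested, 0 passed edgeR's test, with 4 under 0.05 unadjusted, all higher, against 9.8% of all genes tested. Positive changes were found for 8 and negative ones for 6, with a median of 0.03. DESeq2 called 2 higher, against 4.36% of all genes, and voom and the block 0. The 3 with the smallest p were Gpd1, Gpam and Lpl. Gpd1, which makes glycerol 3-phosphate, had 8.06, 2.25 and 5.25 TPM in controls and 41.6, 18.5 and 11.9 TPM in treated libraries, a log2 change of 2.02 with an SE of 0.57 and an edgeR adjusted p of 0.168. Gpam, the first acyltransferase of triglyceride synthesis, had a log2 change of 0.43 (SE 0.12) and Lpl, lipoprotein lipase, one of 0.94 (SE 0.32). Gk, the glycerol kinase that uses imported glycerol, stood at 6.87 ± 1.88 and 7.53 ± 1.42 TPM, and Lipe, hormone-sensitive lipase, at 31.7 ± 0.872 and 36.2 ± 5.81 TPM.

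Aqp4 (gene ID 25293), the water channel of fast skeletal muscle fibres and of astrocytes, was close to the limit of detection in controls. It had 3, 0 and 0 counts in control replicates 1, 2 and 3, against 43, 10 and 11 in the treated replicates. A count of 0 allows up to 0.233 CPM (counts scaled to the library) in controls 2 and 3. The ratio of scaled counts, 64 treated against 3 control, was 20.2 with an exact 95% interval of 6.60 to 100.4, which covers counting error only. The gene passed the count filter only through the treated libraries, of which DST-MNs 2, with 10 counts, was at the minimum. Its adjusted p was 0.158 with edgeR's quasi-likelihood test and 0.038 with DESeq2. Without control 1 the controls held 0 counts. Put at a floor of 3 counts in all, they gave a ratio of 13.4, which leaves out counting error in the treated libraries. Deposited TPM for Aqp4 gave each count between 0.022 and 0.0455 TPM depending on the library, so its levels are better read from counts.

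Muscle transcripts differed widely between the control libraries. The summed level of control 1, which had 3 counts of Aqp4, lay within the range of the treated libraries. Single markers differed from the sum: Ckm, muscle creatine kinase, stood at 460 TPM in control 1, below the 757, 764 and 583 TPM of DST-MNs 1, 2 and 3. Controls 2 and 3 held Ckm at 0 and 17.5 TPM and had no count of Aqp4. Of 10 tested muscle markers 9 had positive changes with a median of 1.11. By edgeR 0 passed, with 1 higher under 0.05 unadjusted, against 9.8% of all genes tested. DESeq2, voom and the block called 0. The log2 ratio of Aqp4 to the list was -10.5 in control 1 and -7.84, -9.97 and -8.75 in the treated libraries. In controls 2 and 3 it was set by the pseudocount of 0.1 TPM, and the groups did not separate (difference -2.17, exact permutation test, two-sided, p = 0.5). Aqp4 had most counts in DST-MNs 1, while muscle markers summed to 8044, 9192 and 7028 TPM in DST-MNs 1, 2 and 3. Hair follicle markers (1119, 2.7 and 5.18 TPM) and basal keratinocyte markers (3915, 345 and 1293 TPM) were also highest in DST-MNs 1. The part of any of these cell types in the Aqp4 level was not tested. The dystrophin complex, which holds Aqp4 at the fibre surface, had overlapping summed levels, 206 to 303 TPM in controls and 216 to 292 TPM after treatment. Of its 9 tested members 0 passed edgeR's test, 0 had an unadjusted p below 0.05 and 0 were called by DESeq2, voom or the block. Among those with the smallest p were the sarcoglycan Sgcb (log2 change -0.27, SE 0.12) and dystrophin itself, Dmd (0.93, SE 0.46).

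Aqp5 (gene ID 25241), the water channel of sweat, salivary and tear glands, was below the count filter. Controls 1, 2 and 3 held 1, 0 and 0 counts, and DST-MNs 1, 2 and 3 held 7, 0 and 6. The groups overlapped, since DST-MNs 2 had no count either. The ratio of scaled counts was 12.3 with an exact 95% interval of 1.85 to 523 for counting error alone. Markers of gland epithelium summed to 21.8 to 28.0 TPM in controls and 36.4 to 49.0 TPM after treatment. The most abundant of them were Kcnn4, at 17.2 ± 3.09 and 27.05 ± 5.20 TPM, and Ano1, at 4.94 ± 0.403 and 7.79 ± 0.934 TPM. The sum leans on these genes, and whether their transcripts came from gland cells was not tested. Of 10 listed, 3 were tested, Krt8, Ano1 and Kcnn4, all with positive changes and a median of 0.50. By edgeR 0 passed, with 2 under 0.05 unadjusted, both higher, against 9.8% of all genes tested. They were the simple epithelial keratin Krt8 (log2 change 1.61, SE 0.30) and the chloride channel Ano1 (0.49, SE 0.14). DESeq2 called 1 higher, against 4.36% of all genes, and voom and the block 0. The other markers found were below the count filter and differed in direction. Counts were lower after treatment for Foxa1 (6 control and 2 treated), Krt7 (23 and 17) and Krt18 (5 and 4). They were higher for Krt19 (15 and 41), Chrm3 (2 and 10) and Cftr, the chloride channel of secretory cells (5 and 9). The log2 ratio of Aqp5 to its list overlapped between the groups (difference 1.16, exact permutation test, two-sided, p = 0.4), but Aqp5 had no count in 3 of the 6 libraries, where the pseudocount sets the ratio, and the difference was 0.38 with a pseudocount of 0.5 TPM and 2.27 with 0.01 TPM.

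Aqp9 (gene ID 65054), a glycerol and solute channel of leukocytes and liver, had overlapping values in the groups. Control replicates 1, 2 and 3 held 28, 28 and 13 counts, and the treated replicates 27, 32 and 7. The levels were 1.63, 1.75 and 0.83 TPM against 1.80, 2.02 and 0.45 TPM, so replicate 3 was lowest in each group. The log2 change was -0.16 (SE 0.57, edgeR adjusted p = 0.91), and its 95% interval of -1.53 to 1.21 allows a change of over 2-fold in either direction.

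The summed level of the 8 neutrophil markers, like Aqp9, was lowest in replicate 3 of each group, at 1259 TPM in controls and 1239 TPM after treatment. The receptor Csf3r, which neutrophils need to mature, had 22.9, 23.3 and 15.1 TPM in control replicates 1, 2 and 3, and 11.9, 24.0 and 3.93 TPM in the treated replicates. The log2 ratio of Aqp9 to the 8 neutrophil markers was -3.25, -3.18 and -3.20 in controls and -2.77, -3.05 and -2.87 in treated wounds, a spread of 0.039 and 0.141 (SD). The groups did not overlap in this ratio, and the difference of 0.31 gave the smallest p that 3 against 3 allows (exact permutation test, two-sided, p = 0.1, and 0.48 adjusted over the 6 ratios). It was the only one of the 6 ratios in which the groups lay apart, and with a pseudocount of 0.5 TPM in place of 0.1 its difference was 0.34 at p = 0.2 (exact permutation test, two-sided). Of 7 tested neutrophil markers, 6 had negative changes with a median of -0.47, and 0 passed by edgeR, 0 at an unadjusted p below 0.05 and 0 by DESeq2, voom or the block.

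**Figure D3:**
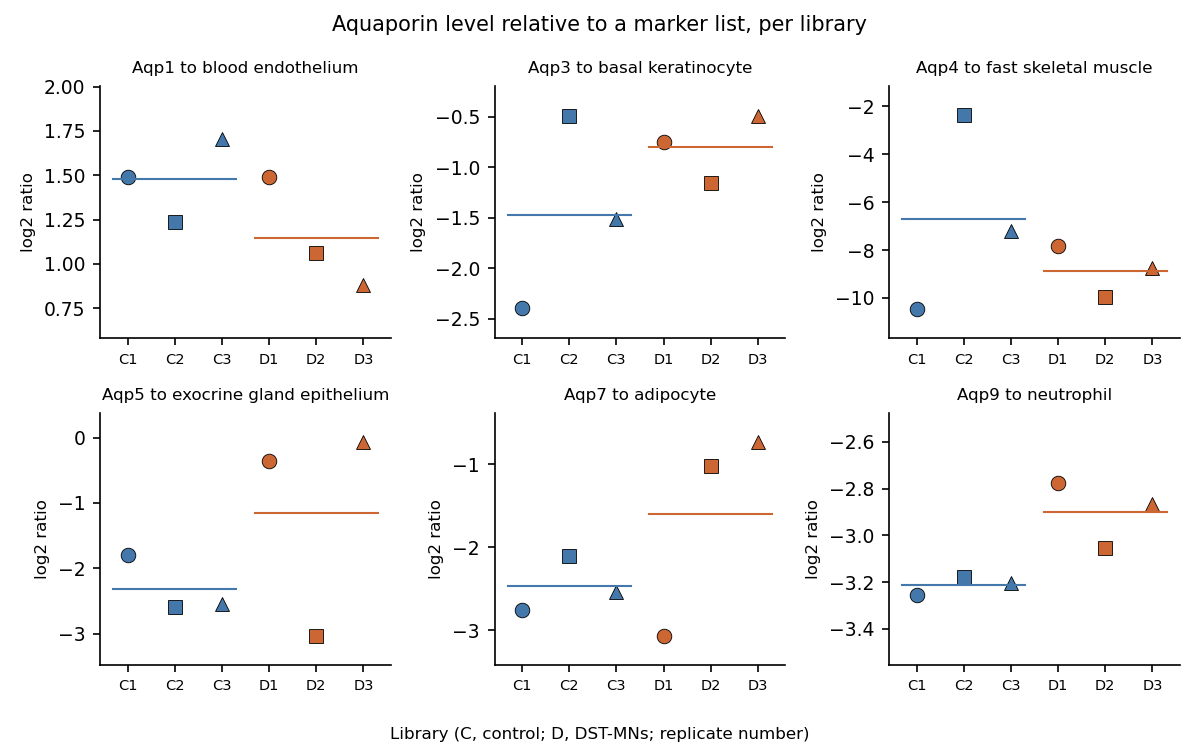
Log2 ratio of an aquaporin to the mean of a fixed marker list, from log2(TPM + 0.1), in each library (C, control; D, DST-MNs), with group means as lines; axes differ between panels. The groups lie apart only in the panel of Aqp9 to neutrophil markers, and the control 2 point of Aqp4 is high because both Aqp4 and muscle markers were near 0 there.

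Aqp11 (gene ID 286758), a channel of the endoplasmic reticulum, was also below the filter, with 3, 2 and 6 counts in the control libraries, against 7, 8 and 6 in the treated ones, in replicate order. Its levels were 0.28, 0.19 and 0.60 TPM against 0.70, 0.82 and 0.60 TPM, so the highest control equalled the lowest treated library, though in CPM they stood at 0.467 and 0.471. The ratio of scaled counts was 1.81, and its exact 95% interval of 0.832 to 4.15 includes 1, so no difference was detectable at this depth. Of 6 further family members listed, 3 were found in the table and none had enough counts to be tested. These were Mip, the lens water channel, with 13.4 control and 11.1 treated counts, Aqp12a with 10 and 4, and Aqp8 with 1 and 0.

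The make-up of the aquaporin transcripts lay apart between the groups, while their total overlapped. Summed over the 7 genes, controls 1, 2 and 3 held 171, 166 and 212 TPM and DST-MNs 1, 2 and 3 held 199.7, 162 and 138 TPM (means 183 ± 25.4 and 166 ± 31.2, exact permutation test, two-sided, p = 0.5). Aqp1 made up 96.1%, 96.8% and 96.7% of this sum in controls and 70.2%, 90.7% and 73.7% after treatment. Aqp3 made up 0.856%, 0.761% and 1.47% in controls and 24.5%, 3.72% and 16.2% after treatment. Aqp7 made up 1.15% to 1.75% in controls and 2.97%, 3.66% and 8.41% after treatment. Each of these 3 shares separated the groups at the smallest p allowed (exact permutation test, two-sided, p = 0.1, and 0.133 adjusted over 4 comparisons). The levels of these genes already lay apart, so the separation of their shares adds no support. Shares of Aqp4 and Aqp11 lay apart as well and were not tested. Shares add up to 100%, so the 3 tested are not independent of one another.

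**Figure D4:**
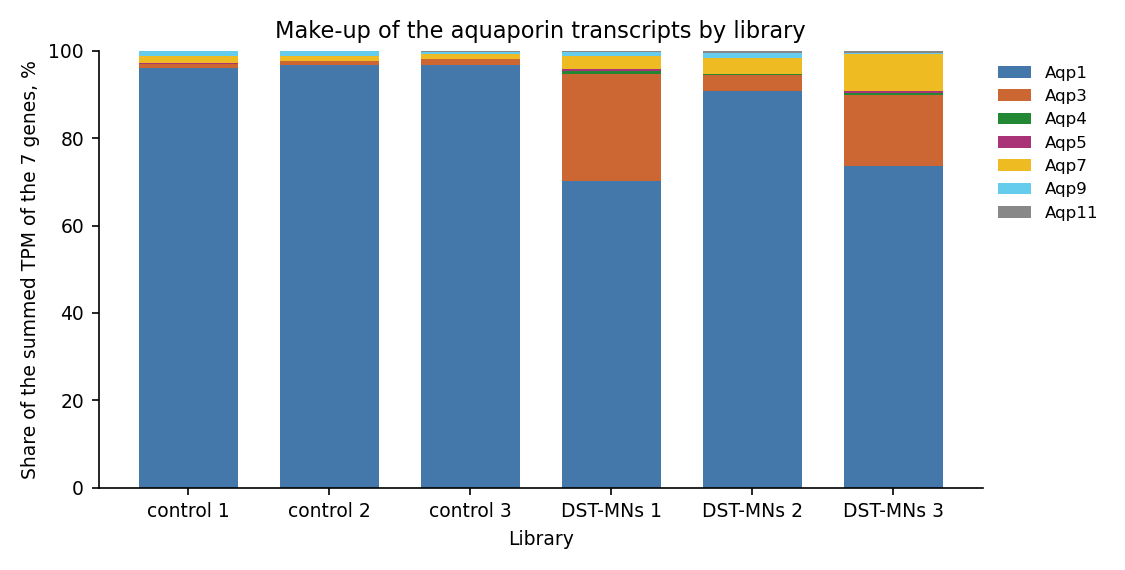
Share of each aquaporin in the summed TPM of the 7 genes, in percent, as stacked bars for the 3 control and 3 DST-MNs libraries. Aqp1 fills at least 96.1% of each control bar and 70.2% to 90.7% of the treated bars, where Aqp3 (orange) and Aqp7 (yellow) take more, Aqp3 most in DST-MNs 1 and Aqp7 most in DST-MNs 3.

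Genes of cell volume and osmotic response, through which cells adjust to water movement, showed no common direction. Of 13 listed, 12 were tested with a median log2 change of -0.02, and 0 passed edgeR's test. Unadjusted, 1 higher and 3 lower genes were under 0.05, against 9.8% and 6.88% of all genes tested. DESeq2 called 1 higher and 1 lower, against 4.36% and 2.73% of all genes. Voom called 1 higher, against 80 of 14427, and the block 0. Slc6a12, a carrier of the osmolyte betaine, stood at 1.46, 0.69 and 0.72 TPM in controls and 5.95, 4.61 and 5.78 TPM after treatment, with a log2 change of 2.34 and an SE of 0.38, just short of the threshold (edgeR adjusted p = 0.0584). Sgk1, a kinase induced by osmotic stress and glucocorticoids, was at -0.66 on the same scale (SE 0.16, edgeR adjusted p = 0.131). Akr1b1, aldose reductase, which makes the osmolyte sorbitol, was at -0.49 (SE 0.16, edgeR adjusted p = 0.207). Nfat5, the transcription factor of the osmotic response, stood at 16.1 ± 1.03 and 19.8 ± 1.09 TPM, with a log2 change of 0.16 (SE 0.11).

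The genes whose pattern over the 6 libraries was most like that of each tested aquaporin were found among 13515 named genes, by the root mean square difference between log2 deviations from each gene's own mean. For Aqp1 they were P4hb, a protein disulfide isomerase (0.0635), Ece1, endothelin-converting enzyme (0.0682), and Vwf, the endothelial von Willebrand factor (0.0725). Those of Aqp3 were the transcription factor gene Pou2f3 (0.322), Arhgef4 (0.36) and Fam83g (0.389). The difference is not scaled by the spread of the gene itself, so its size cannot be compared between aquaporins. The closest to Aqp4 were Casz1 (0.219), Bicdl2 (0.28) and Lynx1 (0.307), and to Aqp7 Papln (0.185), the calcium channel subunit Cacnb4 (0.196) and Tc2n (0.213). Nearest to Aqp9 stood Sirpd (0.166), the lipopeptide receptor Tlr1 (0.216) and Mxd1 (0.23). These likenesses describe 6 libraries.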

How the data were processed

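RNA from 6 wound samples was extracted with TRIzol and sequenced from both ends on the DNBSEQ-T7 platform, as the labels' protocols state. The authors deposited 1 table of 18825 genes. Its estimated counts, deposited by the authors without scaling, are 90.5% to 91.4% whole numbers, and those of all 7 aquaporins are whole. The deposited TPM and FPKM values are scaled by gene length and library, per the file headers, and the FPKM were not used. A further signal, normalised read counts per the file headers, was deposited and not used. Reads were handled against mRatBN7.2, per the submitters' processing notes; which aligner and counter were used is not stated by the sources used here. Columns were matched to samples by library name.

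Counts were rounded, kept by filterByExpr (minimum count 10, 14427 genes), scaled with TMM and tested with edgeR 4.0.16 (quasi-likelihood, glmQLFTest, Benjamini-Hochberg over all genes, threshold 0.05) in R 4.3.3. The SE is the log2 change divided by the square root of F. Members below the filter, or with 3 or fewer control counts, are given as ratios of scaled counts with exact (Clopper-Pearson) 95% intervals for counting error only. The labels name no molecular identifiers. Libraries of a group had a chi-square per degree of freedom of 31.0 to 68.4, far above counting noise, so none was counted as a duplicate. Alternatives used DESeq2 1.42.0 and limma 3.58.1. The fit was also run on simulated counts, with the same spread for every gene and changes placed only in genes with more counts. That run cannot speak for genes with few counts, such as Aqp4, or for the uneven spread of these libraries. The 7 members, the 17 gene lists and the tests were chosen with earlier results of these data known. Named were the aquaporins, the 3 members of each pathway list with the smallest p (or all that passed), up to 3 markers of a cell type list in list order, and the 3 genes most like each tested aquaporin. Some results that this rule names are not reported here. Gk, Lipe, Nfat5, Foxa1, Cftr, Fabp4, Krt7, Krt8, Krt18, Krt19, Chrm3, Ano1, Kcnn4 and Cldn5 were added after their values were seen. Col1a1 was named outside the list order as well. Of 163 list entries 159 were found. Promoter sequences for 6 of the 7 genes were matched by gene ID in RefSeq on GRCr8.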

Additional observations from a re-analysis of the deposited data

How the results depend on the processing

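No aquaporin passed under any planned setting other than DESeq2's Wald test, nor in the limma trend test on log2(TPM + 1), which was added after seeing the data and did not test Aqp4. DESeq2 called 4, with log2 changes of -0.60 for Aqp1, 3.58 for Aqp3, 4.29 for Aqp4 and 1.58 for Aqp7 (adjusted p 0.00433, 8.14e-06, 0.038 and 0.0284), and 1018 genes in all, against 112 (95 higher, 17 lower) with edgeR. The share of higher genes among calls was 84.8% with edgeR, 61.5% with DESeq2 and 73.7% with at least 10 counts required in every library. That last filter left 38 calls and did not test Aqp4 or Aqp9, and glmTreat against a 1.5-fold change left 70 calls. With 1 library left out the calls over all genes ran from 14 to 402 (402, 34 and 53 without controls 1, 2 and 3 and 23, 34 and 14 without DST-MNs 1, 2 and 3), while those of aquaporins stayed at 0. The log2 changes then ran from -0.68 to -0.49 for Aqp1, 2.81 to 4.06 for Aqp3, 3.20 to 7.35 for Aqp4 and 1.02 to 1.83 for Aqp7. For Aqp9 they ran from -0.54 to 0.24, with the sign reversed to 0.24 without DST-MNs 3. The differences in the log2 ratios to marker lists and in the shares kept their sign with each library left out, but the ratios moved widely. They ran from -0.51 to -0.20 for Aqp1, 0.20 to 1.15 for Aqp3, -4.06 to -0.01 for Aqp4, 0.62 to 2.10 for Aqp5, 0.42 to 1.60 for Aqp7 and 0.25 to 0.39 for Aqp9. Pseudocounts of 0.5 and 0.01 TPM gave -3.04 and -0.36 for Aqp4. Same-numbered libraries deviated together with correlations of -0.02, 0.10 and 0.11, and not every library correlated best with its own number, so the numbers were not taken as pairs. The replicate block called 123 genes and 0 aquaporins. At this depth, Aqp5 and Aqp11 with 14 and 32 counts in all, and Aqp4 with 3 control counts, are limited by counting error.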
